A study of Mus musculus with 18 samples.

Results

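Cell cycle and DNA replication genes were followed across 6 groups of mouse tissue, 4 of hindpaw epidermis and 2 of dorsal root ganglia (DRG), with 3 arrays in each. The genes came from a list of 45, and 44 had a probe set of their own on the array, out of 19938 genes that did. Where a gene had several probe sets, the brightest over the epidermis arrays was used. The list holds 16 S phase genes, 28 mitotic genes and Ccnd1, a G1 cyclin that is counted apart from both classes. Of the mitotic genes 27 were measured, and Ccnb1 was not analysed here.

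The mutant mice were K14Cre-Trpa1 fl/fl, which express Cre recombinase from the keratin 14 promoter of keratinocytes and carry loxP sites around the pore exons of the ion channel gene Trpa1. The control mice, called wild type in the labels, were K14Cre-Trpa1+/+ and carry the same Cre. Mice of both genotypes were adult males of at least 7 weeks on a mixed background of C57BL/6, CBA and Swiss Webster, and mutants came from a colony kept apart from the controls. Epidermis came from CFA mutant, CFA control, naive mutant and naive control mice, and DRG from naive mutant and naive control mice. Complete Freund's adjuvant (CFA), an oil emulsion with killed mycobacteria that inflames the paw, had been injected 2 days before, and vehicle-injected mice were not arrayed. The values are log2 signals after robust multiarray averaging (RMA), so a difference of 1 is a doubling of signal, and levels of different genes were not compared because each probe set binds with its own strength.

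Cells that divide pass through a G1 phase, copy their DNA in S phase and separate the copies in mitosis. Cyclins and their kinases drive these steps, E2F factors switch on the genes of DNA replication before S phase, and the DREAM and MuvB complexes with B-Myb and FoxM1 time the genes of mitosis. In epidermis, division takes place mainly in the basal layer, and the keratinocytes above it leave the cycle as they differentiate. Most cells of adult ganglia, the neurons above all, do not divide.

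The arrays matched their tissue labels. On epidermis arrays the 6 basal keratinocyte markers averaged 10.62 to 11.40 and the 5 measured sensory neuron markers 4.73 to 5.14, against 6.88 to 7.10 and 11.42 to 11.66 on DRG arrays. The tissues have different array medians, 5.76 to 5.84 and 6.92 to 6.95, and are treated as normalized apart, so levels were compared within a tissue only. Arrays of 1 group correlated at 0.992 to 0.997 over all probe sets tested. Trpa1 lay below background on all 12 epidermis arrays, at 3.61 to 3.97. In DRG it read 8.84, 8.44 and 8.54 in mutants, against 8.99, 8.89 and 9.08 in controls. It is not known here whether its probes fall in the deleted part, so these values do not check the genotype labels. Background on an array was taken from 1223 probe sets of odorant, vomeronasal and trace-amine receptors as their 95th percentile, which lay at 4.57 to 4.78 in epidermis and 5.78 to 5.93 in DRG.

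CFA epidermis held arrays that stood apart. The mean over the 27 mitotic genes was 6.98 on CFA control replicate 1, and 7.92 and 7.88 on the other CFA control arrays. On CFA mutant arrays it was 7.30, 7.68 and 7.94, lowest again on replicate 1. The 16 S phase genes averaged 6.60 on CFA control replicate 1 and 7.31 and 7.14 on the other arrays of that group. On CFA mutant arrays they averaged 7.17, 7.08 and 7.10. Naive mutant arrays lay close together, at 7.52, 7.57 and 7.56 for mitotic genes, below all 3 naive control arrays at 7.95, 7.70 and 7.69. For S phase genes naive mutants read 7.15, 7.27 and 7.27, against 7.62, 7.15 and 7.28 in naive controls, where replicate 1 was the highest of the 12 epidermis arrays. Arrays entered more than 1 comparison, naive control replicate 1 for example both CFA against naive in controls and mutants against controls in naive epidermis, so the comparisons below are not independent. Basal keratinocyte markers averaged 11.12 on CFA control replicate 1 and 11.24 and 11.23 on the other arrays of its group. In bulk tissue, fewer cycling cells and less of these RNAs per cell cannot be told apart.

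**Figure D1:**
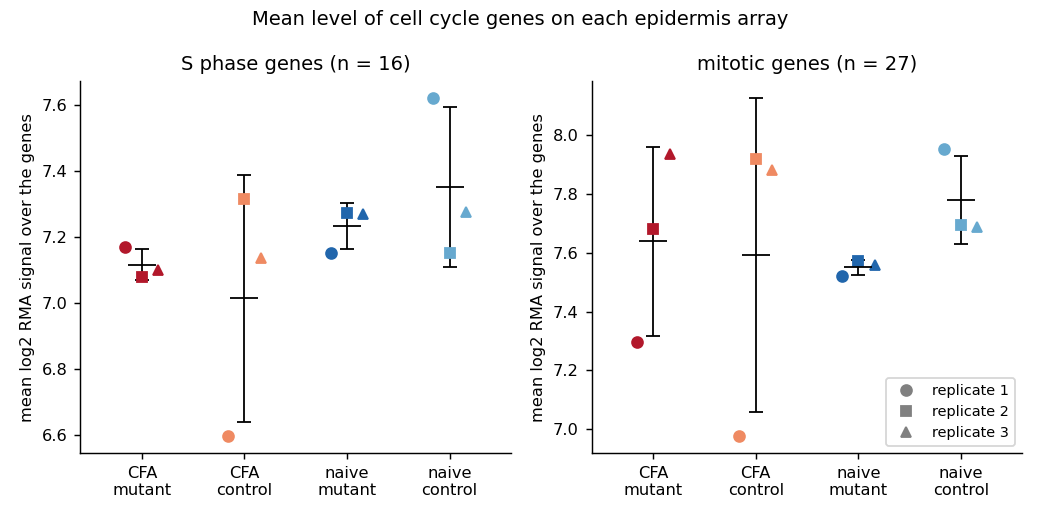
Mean log2 RMA signal of the 16 S phase genes (left) and the 27 mitotic genes (right) on each of the 12 epidermis arrays. Points are arrays, with a symbol for each replicate number, and bars are the group mean and SD (n = 3). CFA control replicate 1 is the lowest array in both panels, at 6.60 and 6.98, and the naive mutant arrays lie within 7.52 to 7.57 for mitotic genes.

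Promoter windows of 300 bases, 250 before to 50 after the start, were taken from RefSeq (GRCm38.p6), which held 39 windows for 36 of the 44 genes. E2F sites, searched as TTTCCCGC, TTTGGCGC, TTTCGCGC or TTTGCCGC on both strands, were in 6 of 14 windows of S phase genes (42.9%) and 1 of 25 of mitotic genes (4.0%), beside 2.26% of all 32851 windows. The cell cycle homology region, the element that MuvB binds, was searched as TTTGAA on both strands and was in 1 of 14 S phase windows (7.14%) and 20 of 25 mitotic windows (80.0%), beside 17.9% of all. The CCAAT box, bound by NF-Y, was in 64.3% of S phase, 80.0% of mitotic and 37.4% of all windows. The homology region and a CCAAT box stood together in 18 of 25 mitotic windows (72.0%), beside 6.95% of all. In the mitotic windows 20 of 27 matches to the homology region began within 50 bases of the start, at a median of -5. The 51 CCAAT matches had a median of -71. Ect2 and Prc1 had overlapping windows from different starts. The same sites of these genes were therefore counted for each start. Different motifs overlapped in 2 places in the windows of these genes, and a match describes letters and not a bound site.

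The helicase genes Mcm6 and Mcm3 are shown as S phase promoters with E2F sites, and 4 mitotic promoters as ones with a homology region and a CCAAT box. Of other mitotic genes with array values below, the windows of Mki67, Cdc20 and Ect2 held both. That of Bub1 held CCAAT boxes but no homology region, and that of Birc5 held neither. Capitals mark E2F sites, homology regions and CCAAT boxes on either strand. The windows are Mcm6 (chr1:128359656-128359955, minus strand), Mcm3 (chr1:20820263-20820562, minus strand), Top2a (chr11:99024140-99024439, minus strand), Ccnb2 (chr9:70421505-70421804, minus strand), Kif23 (chr9:61946750-61947049, minus strand) and Kif11 (chr19:37376132-37376431, plus strand).
Mcm6: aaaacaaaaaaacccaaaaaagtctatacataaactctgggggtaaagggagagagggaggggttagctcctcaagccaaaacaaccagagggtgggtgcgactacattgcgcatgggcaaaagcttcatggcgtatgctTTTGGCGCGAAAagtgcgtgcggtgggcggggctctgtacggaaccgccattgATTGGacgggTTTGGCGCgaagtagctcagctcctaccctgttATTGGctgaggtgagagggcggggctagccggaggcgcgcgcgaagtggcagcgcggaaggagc
Mcm3: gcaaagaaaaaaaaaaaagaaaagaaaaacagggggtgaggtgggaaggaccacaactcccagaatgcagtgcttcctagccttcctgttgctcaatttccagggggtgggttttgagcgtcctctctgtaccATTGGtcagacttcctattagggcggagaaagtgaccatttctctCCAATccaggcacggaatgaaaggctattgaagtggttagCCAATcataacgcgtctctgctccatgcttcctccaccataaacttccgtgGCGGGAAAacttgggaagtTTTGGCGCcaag
Top2a: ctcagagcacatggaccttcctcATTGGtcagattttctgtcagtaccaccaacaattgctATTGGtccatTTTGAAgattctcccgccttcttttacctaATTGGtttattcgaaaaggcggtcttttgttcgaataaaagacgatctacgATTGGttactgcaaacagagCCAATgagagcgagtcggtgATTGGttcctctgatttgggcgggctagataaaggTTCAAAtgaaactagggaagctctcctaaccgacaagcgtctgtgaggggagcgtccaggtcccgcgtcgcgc
Ccnb2: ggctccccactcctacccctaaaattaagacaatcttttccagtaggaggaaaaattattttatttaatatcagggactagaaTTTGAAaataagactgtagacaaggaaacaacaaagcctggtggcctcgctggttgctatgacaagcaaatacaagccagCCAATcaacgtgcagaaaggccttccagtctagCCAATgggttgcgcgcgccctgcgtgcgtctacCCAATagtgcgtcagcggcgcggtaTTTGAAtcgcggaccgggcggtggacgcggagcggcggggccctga
Kif23: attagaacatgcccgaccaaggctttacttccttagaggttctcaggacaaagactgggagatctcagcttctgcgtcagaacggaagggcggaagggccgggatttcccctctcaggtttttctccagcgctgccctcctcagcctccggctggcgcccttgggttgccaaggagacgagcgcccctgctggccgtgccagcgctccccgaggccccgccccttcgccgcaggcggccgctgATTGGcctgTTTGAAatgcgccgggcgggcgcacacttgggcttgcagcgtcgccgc
Kif11: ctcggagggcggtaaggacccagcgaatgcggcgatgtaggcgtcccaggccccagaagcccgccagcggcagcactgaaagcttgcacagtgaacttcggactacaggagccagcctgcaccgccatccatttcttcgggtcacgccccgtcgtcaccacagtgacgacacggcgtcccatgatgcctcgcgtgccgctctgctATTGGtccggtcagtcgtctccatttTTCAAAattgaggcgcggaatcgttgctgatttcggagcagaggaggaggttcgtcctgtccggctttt

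Mcm6 holds 3 E2F sites and 2 CCAAT boxes, and Mcm3 holds 2 and 3, with no homology region in either. The Mcm6 E2F matches that begin at -110 and -106 lie on opposite strands and overlap, and each was counted as a site. Top2a holds 2 homology regions and 6 CCAAT boxes, Ccnb2 holds 2 and 3, and Kif23 and Kif11 hold 1 of each.

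CFA epidermis was set against naive epidermis to ask how inflammation changed the tissue of each genotype. By the brightest probe set of each gene, the smallest adjusted p in both genotypes was that of Ccnd1, cyclin D1, which with Cdk4 and Cdk6 carries cells through G1. Ccnd1 read 9.26, 9.49 and 8.91 in CFA mutants, against 9.77, 9.95 and 9.95 in naive mutants. It read 8.93, 9.39 and 8.53 in CFA controls, against 9.88, 9.66 and 9.72 in naive controls. CFA arrays lay below every naive array in both genotypes. In mutants the groups lay apart for 6 of the 44 genes downward and 2 upward, beside 4561 and 5625 of 23410 probe sets. In controls they did for 7 downward and 0 upward, beside 5155 and 5091. Ccnd1 fell by 0.67 on the log2 scale in mutants (SE 0.14, limma adjusted p = 0.00921) and by 0.80 in controls (SE 0.19, limma adjusted p = 0.0123), which is 1.59-fold and 1.74-fold.

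In mutant epidermis 1 of 44 genes rose with CFA and 1, Ccnd1, fell. Over all probe sets tested, 12.9% rose and 13.1% fell. The gene that rose was Top2a, topoisomerase II alpha, which untangles DNA before chromosomes part. Its brightest probe set read 8.65, 8.86 and 9.17 in CFA mutants, against 8.44, 8.49 and 8.40 in naive mutants, with no overlap, and was higher by 0.45 (SE 0.13, limma adjusted p = 0.0312). A dimmer probe set of the same gene went the other way. It read 6.79, 6.43 and 6.79 in CFA mutants, against 8.05, 7.72 and 7.89 in naive mutants, and fell by 1.22 on the log2 scale (limma adjusted p = 0.000257). In controls that probe set read 7.21, 7.07 and 7.61 with CFA, against 7.87, 7.92 and 8.02 in naive mice, and fell by 0.64 (limma adjusted p = 0.0086). The direction of Top2a with CFA therefore depends on the probe set. The call of the brightest probe set also went at an adjusted p of 0.0518 to 0.0888 when any array of the comparison other than CFA mutant replicate 1 was left out.

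Before adjustment, at p under 0.05, CFA mutants had 4 of the 44 genes higher and 5 lower, beside 20.9% and 17.5% of all probe sets. The 4 were all mitotic: Top2a, Mki67, the proliferation marker Ki-67, with a log2 difference of 0.43, and 2 kinetochore genes, Cenpe, a motor that carries chromosomes, at 0.46, and the checkpoint kinase gene Bub1b at 0.32. Mki67 read 9.92, 10.49 and 10.72 in CFA mutants, against 9.88, 10.05 and 9.92 in naive mutants, so the lowest CFA array overlapped the naive ones. The 5 were Ccnd1, 3 S phase genes (Cdc6 at -0.39, Ccne2 at -0.29 and Mcm7 at -0.24) and the cytokinesis gene Ect2 at -0.43. Ect2, which activates RhoA at the cleavage furrow, read 7.66, 8.09 and 8.35 in CFA mutants, against 8.47, 8.54 and 8.39 in naive mutants.

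In control epidermis only Ccnd1 of the 44 genes was called with CFA, and it fell, beside 11.5% of all probe sets higher and 14.8% lower. Before adjustment, at p under 0.05, 0 were higher and 8 lower, beside 19.2% and 19.6%. Apart from Ccnd1 these were 5 S phase genes and the mitotic genes Aurkb and Ect2. Ccne2, the cyclin E2 that activates Cdk2 at S phase entry, had the largest log2 difference of the S phase genes at -0.75 (SE 0.27, limma adjusted p = 0.0704). It read 4.73, 5.83 and 5.65 in CFA controls, against 6.54, 5.96 and 5.97 in naive controls, and the 4.73 of replicate 1 lay below background. In CFA mutants it read 5.81, 5.48 and 5.65, against 5.84, 6.02 and 5.97 in naive mutants, again with no overlap (limma adjusted p = 0.0633). Rrm2, the small subunit of ribonucleotide reductase that supplies deoxynucleotides, read 6.67, 7.54 and 7.48 in CFA controls, against 8.15, 7.64 and 7.81 in naive controls, a log2 difference of -0.64 (SE 0.23, limma adjusted p = 0.068). In mutants Rrm2 read 7.51, 7.55 and 7.56 with CFA, against 7.58, 7.61 and 7.62 in naive mice, a difference of -0.06 in groups that also did not overlap (limma adjusted p = 0.552).

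As classes, S phase and mitotic genes had medians on opposite sides of 0 in mutants and both below 0 in controls. The median log2 difference of the 16 S phase genes, CFA minus naive, was -0.08 in mutants, with 15 negative, and that of the 27 mitotic genes 0.09, with 18 positive. In controls the medians were -0.28, with 16 of 16 negative, and -0.21, with 20 of 27 negative. The median over all probe sets was 0.04 in mutants and 0.03 in controls, with 56.5% and 54.2% of probe sets positive. These classes were described without a test, and the mitotic side turned on single arrays. Without CFA control replicate 1 the mitotic median in controls was 0.08, and 4 mitotic genes were called higher, Plk1, Cenpe, Top2a and Mki67, beside 10.2% of all probe sets called higher. Without CFA mutant replicate 1 the mitotic median in mutants was 0.25, with 8 mitotic genes called higher (Plk1, Birc5, Cenpe, Cenpf, Tpx2, Hmmr, Top2a and Mki67) and Cdc6, Ccne2 and Ccnd1 lower, beside 10.0% and 11.6% of all probe sets. Without CFA mutant replicate 3 it was -0.08, with 0 higher and Mcm7, Ccnd1, Ccnb2 and Ect2 lower, beside 10.5% and 11.7%. S phase medians stayed below 0 without any single array, at -0.14 to -0.07 in mutants and -0.43 to -0.08 in controls. In controls the S phase difference drew on replicate 1 of both groups, which averaged 6.60 with CFA and 7.62 in naive mice. The other control arrays averaged 7.31 and 7.14 with CFA, against 7.15 and 7.28 in naive mice, and overlapped. A fit without both of these replicates was not run.

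**Figure D2:**
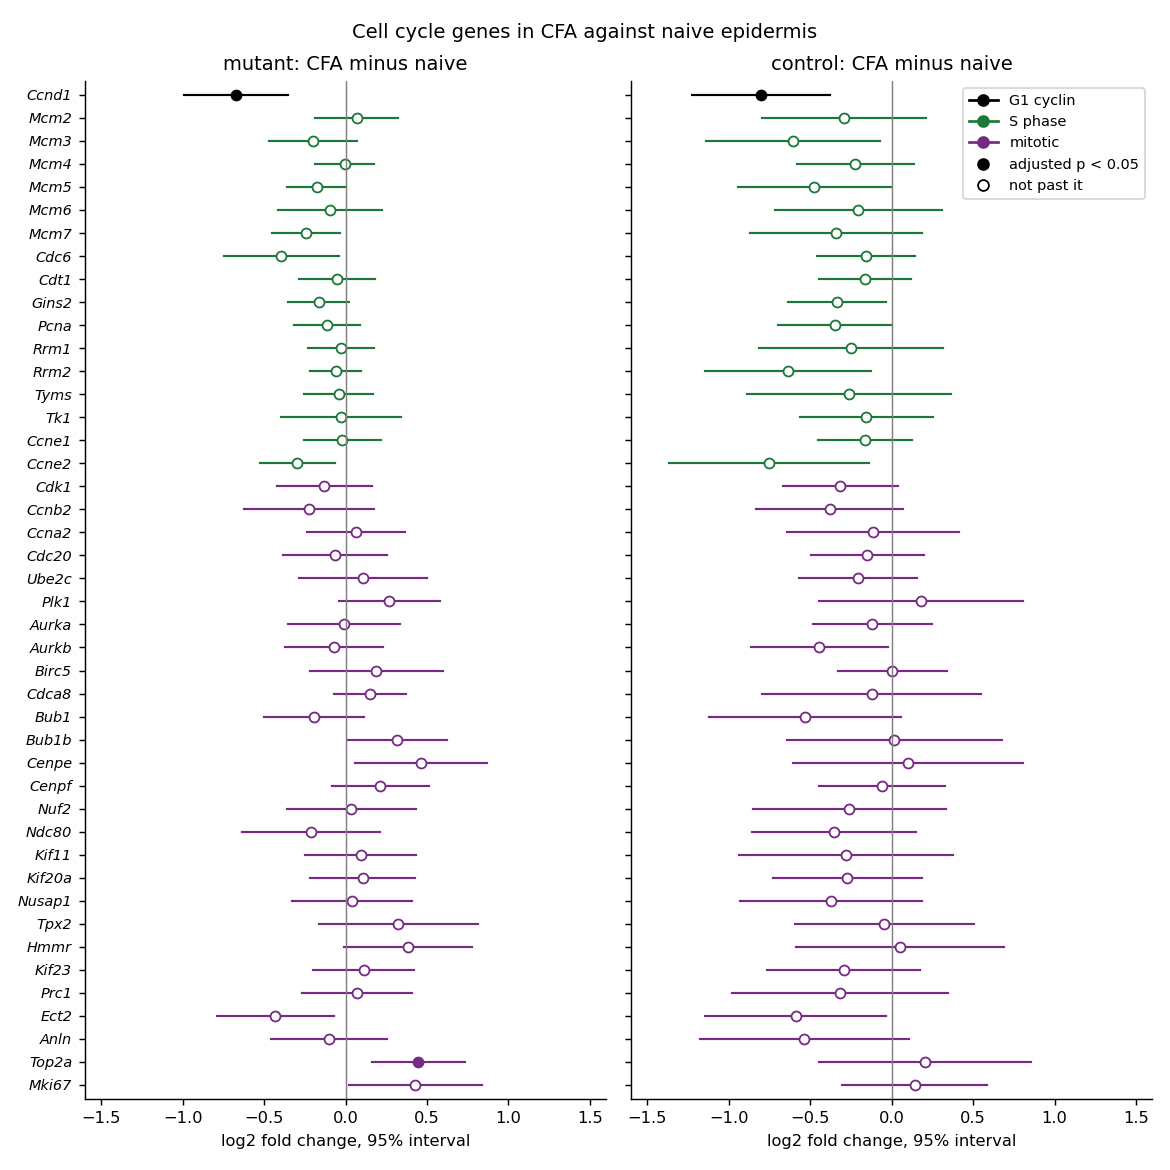
Log2 fold change of the 44 genes, CFA minus naive, in mutant (left) and control (right) epidermis, with 95% intervals from limma (n = 3 arrays a group). Filled points passed an adjusted p of 0.05: Ccnd1 in both panels, at -0.67 and -0.80, and Top2a in mutants, at 0.45. Intervals are wider in controls.

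By role, all 16 S phase genes had negative differences in controls. Of the Mcm2 to Mcm7 genes, whose products form the replicative helicase, Mcm3 had a log2 difference of -0.60 and Mcm5 of -0.47 with CFA in controls at an unadjusted p of 0.0302 and 0.0485, and Mcm6 had -0.20 (limma adjusted p = 0.546). Mcm6 read 7.54, 7.45 and 7.03 in CFA mutants, 6.85, 7.75 and 7.57 in CFA controls, 7.28, 7.47 and 7.55 in naive mutants and 7.88, 7.33 and 7.57 in naive controls, so its groups overlapped. Of the factors that load and start the helicase, Gins2 read 6.43, 6.39 and 6.55 in CFA mutants, 5.98, 6.36 and 6.22 in CFA controls, 6.67, 6.66 and 6.53 in naive mutants and 6.65, 6.29 and 6.63 in naive controls. Pcna, the sliding clamp of the polymerases, read 9.38, 9.28 and 9.11 in CFA mutants, against 9.30, 9.39 and 9.40 in naive mutants, and 8.91, 9.41 and 9.36 in CFA controls, against 9.81, 9.46 and 9.44 in naive controls. The control groups of Pcna did not overlap, at a log2 difference of -0.35 (SE 0.16, limma adjusted p = 0.132), and its dimmer probe set gave -0.33 with overlapping groups. Cdt1, Tk1 and Tyms differed by -0.26 to -0.03 in either genotype.

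Mitotic genes differed among themselves. In mutants log2 differences with CFA ran from -0.43 for Ect2 to 0.46 for Cenpe. Ccnb2, a cyclin partner of Cdk1, read 8.43, 8.68 and 9.22 in CFA mutants, against 8.98, 9.04 and 8.98 in naive mutants, and 8.28, 9.07 and 9.12 in CFA controls, against 9.27, 9.24 and 9.11 in naive controls. Cdc20, the activator of the anaphase-promoting complex, read 6.61, 7.09 and 7.18 in CFA mutants, against 7.0, 6.99 and 7.08 in naive mutants, and 6.57, 7.06 and 7.20 in CFA controls, against 7.05, 7.20 and 7.03 in naive controls. Aurkb, the kinase of the chromosomal passenger complex, did not overlap between CFA and naive controls, at 6.63, 7.29 and 7.38 in CFA controls, against 7.72, 7.42 and 7.49 in naive controls (log2 difference -0.44, SE 0.19, limma adjusted p = 0.111). Birc5, survivin of the same complex, read 6.30, 6.81 and 6.74 in CFA controls, against 6.81, 6.45 and 6.58 in naive controls, a difference of 0.01. For each of these genes replicate 1 was the lowest of the CFA control arrays.

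**Figure D3:**
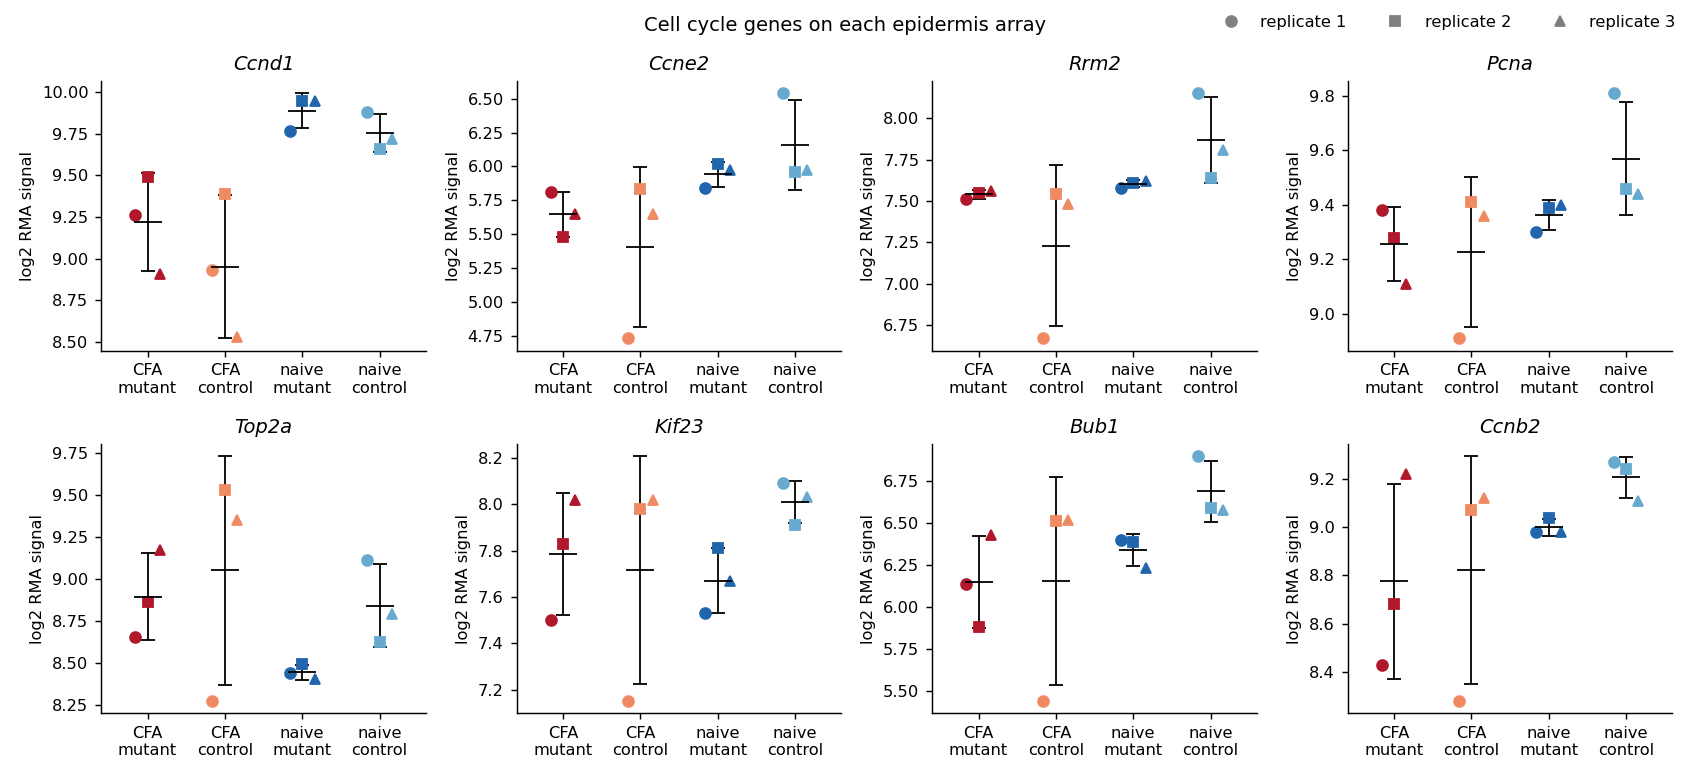
Log2 RMA signal of 8 cell cycle genes on each of the 12 epidermis arrays, with group means and SD (n = 3), each gene on its own axis. Ccnd1 is lower on every CFA array than on every naive array of the same genotype. For the other 7 genes replicate 1 is the lowest CFA control array, such as 6.67 for Rrm2 and 5.44 for Bub1.

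Further genes of the same processes were read beside the 44, and their counts stand against 12.9% of all probe sets that rose and 13.1% that fell in mutants, and 11.5% and 14.8% in controls. Of 41 measured replication genes 12 fell with CFA in mutants and 8 in controls, and 0 rose in either. Asf1b, a histone chaperone at the fork, fell by 0.69 in mutants and by 1.03 in controls (limma adjusted p = 0.00243 and 0.0116). Tipin, of the fork protection complex, fell by 0.43 and 0.77, and the polymerase delta subunit gene Pold2 by 0.35 and 0.64. Gins1 fell by 0.36 in mutants and the origin recognition gene Orc2 by 0.68 in controls. The medians of the 41 were -0.11 and -0.31. Of 59 further mitotic genes 1 rose and 2 fell in mutants and 4 fell in controls, shares below those of all probe sets. The centromere gene Cenpi fell by 1.03 and 1.35 (limma adjusted p = 0.00016 and 0.00236), Pttg1, securin, by 0.39 in mutants, and Pbk, Espl1, the gene of separase, and Pimreg by 0.96, 0.55 and 0.29 in controls. The phosphatase gene Cdc25b, which activates Cdk1, rose by 0.44 in mutants.

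Regulators of the cycle moved in both directions. Of 18 transcription regulators 3 rose and 3 fell with CFA in mutants and 4 fell in controls. Lin9 and Lin54, MuvB subunits, fell by 0.92 and 0.58 in mutants and by 1.00 and 0.71 in controls. E2f2 fell by 0.37 and 0.60, Foxm1 by 0.43 in controls, and Myc rose by 0.41 in mutants. Of 16 genes that restrain the cycle 7 fell and 1 rose in each genotype. Btg2, an antiproliferative gene, fell by 1.68 in mutants and by 1.86 in controls (limma adjusted p = 8.33e-05 and 1.36e-06), and Btg1 fell by 0.75 and 0.81. Cdkn2c, an inhibitor of Cdk4 and Cdk6, fell by 0.63 and 1.04, and Rb1, the retinoblastoma protein gene, by 0.40 and 0.67. Ccng1, cyclin G1, rose by 0.50 and 0.33. Of 7 further G1 genes Ccnd2 rose by 0.69 in mutants and 0.63 in controls, and Ccnd3 by 0.59 in controls, while Ccnd1 fell. The medians of the inhibitors were -0.17 in mutants and -0.38 in controls.

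Markers of cell types moved with CFA too. Over all probe sets 12.9% rose and 13.1% fell in mutants, and 11.5% and 14.8% in controls. Basal keratinocyte markers rose, 6 of 6 in mutants and 5 of 6 in controls, led by Itga6 at 1.17 and 1.07. Of 5 measured differentiation genes 2 fell in each genotype, and medians over the 5 were -0.11 in mutants and -0.25 in controls. Lor, loricrin, fell by 2.52 in mutants and fell by 1.63 in controls, and Ivl, involucrin, fell by 1.21 and fell by 0.81. Of 10 leukocyte markers 1 rose and 1 fell in mutants and 6 rose and 1 fell in controls. The 1 that rose in mutants was Lyz2, above background on 2 CFA mutant arrays and 0 naive mutant arrays. Lyz2 was also among the 6 in controls, where it lay above background on 0 arrays of either group. The leukocyte mean was 6.61 to 7.22 in CFA mutants, 6.85 to 7.70 in CFA controls, 6.13 to 6.80 in naive mutants and 6.14 to 6.81 in naive controls. The wound keratins, 4 genes, averaged 9.14 to 10.53, 8.72 to 10.60, 8.13 to 8.86 and 8.23 to 9.37 in the same order. The part of these cells in the values of the cycle genes was not tested.

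Mutant and control epidermis of naive mice were compared to ask how the genotypes differed at rest. Trpa1 lay below background in both, as given above, so these arrays show no loss of its RNA, and the mutants also came from another colony. None of the 44 genes was called, at a smallest limma adjusted p of 0.437, and 0.0299% of all probe sets were. The log2 differences, mutant minus control, were negative for 39 of 44 genes, beside 51.2% of all probe sets. The medians were -0.25 for mitotic genes, with 26 of 27 negative, -0.14 for S phase genes, with 13 of 16 negative, and 0.00 for all probe sets. At an unadjusted p under 0.05, 17 were lower, beside 4.78% of all probe sets, and 16 of them were mitotic, the other being Rrm1. The arrays of the groups did not overlap for 20 genes that were lower in mutants, 16 mitotic and 4 S phase, beside 8.93% of all probe sets, and for 0 that were higher, beside 7.66%.

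Kif23, a kinesin of the central spindle, had the smallest p of these. It read 7.53, 7.81 and 7.67 in naive mutants, against 8.09, 7.91 and 8.03 in naive controls, a log2 difference of -0.34 (SE 0.09, limma adjusted p = 0.437). Top2a read 8.44, 8.49 and 8.40 in naive mutants, against 9.11, 8.62 and 8.79 in naive controls (-0.40, limma adjusted p = 0.475), and its dimmer probe set differed by -0.05. Bub1, a spindle checkpoint kinase, read 6.40, 6.39 and 6.23 in naive mutants, against 6.90, 6.59 and 6.58 in naive controls, a difference of -0.35. Kif11, the motor that pushes spindle poles apart, read 7.90, 7.84 and 7.88 in naive mutants, against 8.48, 8.07 and 8.15 in naive controls, a difference of -0.36. Mutant arrays were lower than every control array for all 4. Ccnb2 differed by -0.21, Aurkb by -0.25, Birc5 by -0.19 and Cdc20 by -0.07, and Plk1 was the only mitotic gene with a positive difference, 0.02. Of 59 further mitotic genes 57 were negative, with a median of -0.25, led by Cenpi at -0.34 and Melk at -0.50 (limma adjusted p = 0.264 and 0.265), and of 41 further replication genes 34 were negative, with a median of -0.11. Markers of other cells differed in the same comparison, with none called. The 4 wound keratins were all negative, with a median of -0.49 and array means of 8.13 to 8.86 in naive mutants and 8.23 to 9.37 in naive controls. The 5 differentiated keratinocyte markers were all positive, with array means of 12.26 to 12.30 in naive mutants and 12.13 to 12.18 in naive controls, without overlap. The 3 melanocyte markers were all negative, at 5.42 to 5.56 in naive mutants and 5.53 to 6.02 in naive controls, with Tyrp1 at -0.64 (limma adjusted p = 0.374). Basal keratinocyte markers averaged 10.66 to 10.74 in naive mutants and 10.62 to 10.68 in naive controls. The part of these cells in the lower mitotic values was not tested.

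The size of this difference in naive epidermis rested in part on single arrays. The genes were all read on the same arrays, so the counts of genes are not counts of independent observations. Without naive control replicate 1, the array with the highest levels, 8 genes were lower at an unadjusted p under 0.05, beside 3.75% of all probe sets, and the mitotic median was -0.16, with 25 of 27 negative. Without naive mutant replicate 1 there were 7, beside 4.43%, and in a fit that shares its spread over all 4 epidermis groups 0, beside 3.32%.

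**Figure D4:**
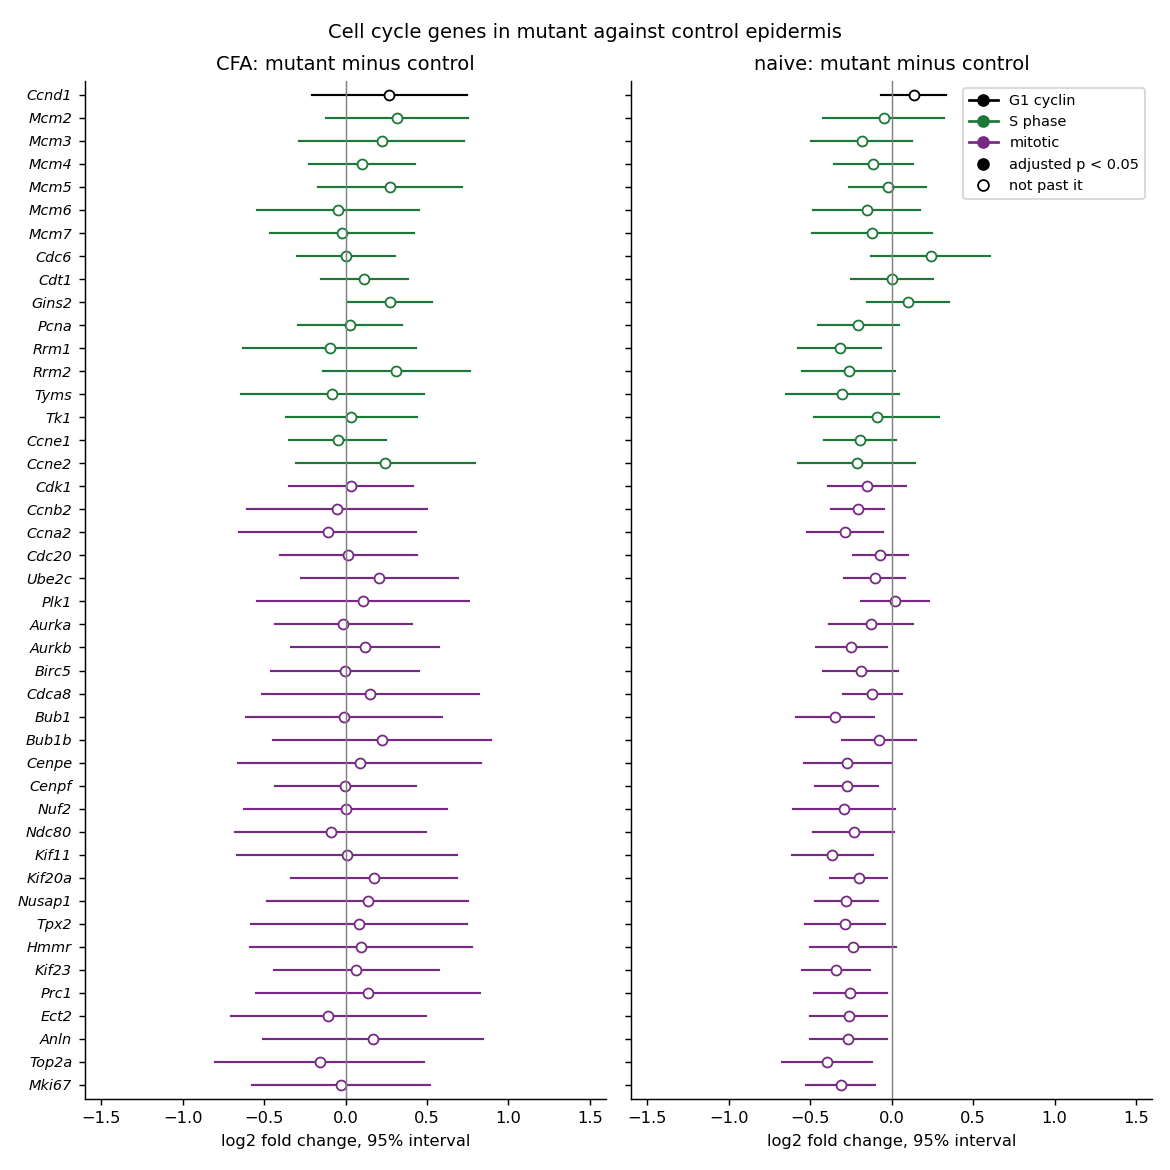
Log2 fold change of the 44 genes, mutant minus control, in CFA (left) and naive (right) epidermis, with 95% intervals from limma (n = 3 arrays a group). No point passed an adjusted p of 0.05. In naive epidermis 39 of 44 points lie left of 0, and in CFA epidermis 15 of 44 do.

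In CFA epidermis the same comparison gave medians near 0 that turned on single arrays. None of the 44 genes was called, against 0.179% of all probe sets, and the medians were 0.07 for S phase genes, 0.04 for mitotic genes and 0.01 for all. Of the 44 genes 29 had a positive difference, beside 54.3% of all probe sets. Gins2 alone passed an unadjusted p of 0.05 upward, beside 5.05% of all probe sets. Its groups alone lay apart, beside 2032 of 23410 probe sets apart upward and 1312 downward. It read 6.43, 6.39 and 6.55 in CFA mutants, against 5.98, 6.36 and 6.22 in CFA controls, without overlap (0.27, SE 0.12, limma adjusted p = 0.535). Intervals were wide, as for Kif11 at -0.67 to 0.68 around 0.01, so these arrays could not show small differences. Without CFA control replicate 1 the mitotic median was -0.27, with 26 of 27 negative, and without CFA control replicate 2 it was 0.20, with 27 of 27 positive. Leaving out replicate 1 of both CFA groups, chosen after the data were seen, gave medians of -0.09 and -0.08. Of 10 leukocyte markers 1 was called, Csf1r, which was lower in CFA mutants by 0.78 (limma adjusted p = 0.0103). Differences were negative for 7 of these markers and positive for 3, with a median of -0.495. The part of leukocytes in the values of the cycle genes was not tested.

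The difference between genotypes in the response to CFA was tested as an interaction. None of the 44 genes was called, at a smallest limma adjusted p of 0.605, beside 0.0256% of all probe sets, and 0 passed an unadjusted p of 0.05, beside 8.26%. The sign was positive for 43 of 44 genes, beside 54.5% of all probe sets, with medians of 0.22 for S phase genes and 0.29 for mitotic genes, against 0.02 for all. Rrm2 had the largest, 0.57 (95% interval up to 1.15 and just reaching 0, limma adjusted p = 0.605). Without CFA control replicate 1 the sign was positive for 22 of 44 genes, with a mitotic median of -0.03, so the common sign was not seen without that array. Without replicate 1 of both CFA groups it was positive for 33 of 44.

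**Figure D5:**
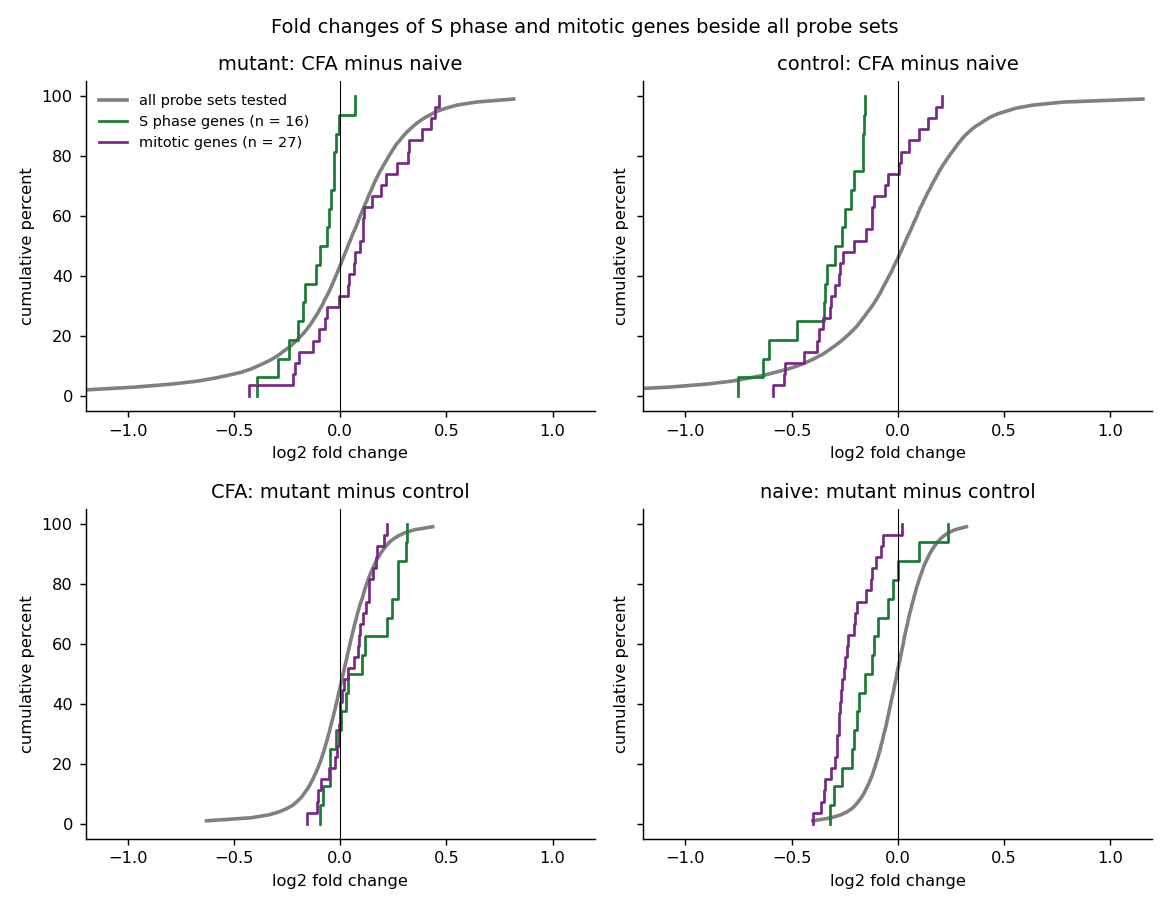
Cumulative percent of log2 fold changes for S phase genes (green, n = 16), mitotic genes (purple, n = 27) and all probe sets tested (grey) in the 4 epidermis comparisons. The mitotic curve lies left of the grey one in naive epidermis, with a median of -0.25 against 0.00, and the S phase median lies left of the grey one with CFA in both genotypes, at -0.08 in mutants and -0.28 in controls.

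In DRG, where division is rare, mutants and controls were compared for the same genes. On all 6 DRG arrays 23 of 44 genes lay above background, 12 of 16 S phase genes, 10 of 27 mitotic genes and Ccnd1. On none of the 6 did 12, which were Ccne2 and 11 mitotic genes, among them Birc5, Bub1, Cdk1 and Ndc80. In epidermis 43 of 44 lay above background on all 12 arrays. Of all probe sets 70.95% to 72.29% lay above background on a DRG array and 67.6% to 69.48% on an epidermis array. The probe set of each gene was chosen by its level in epidermis. That of Tk1 lay above background on 4 DRG arrays, and its other probe set on all 6, at 6.86 to 7.16. Mitotic genes averaged 5.70 to 5.86 on mutant and 5.73 to 5.75 on control DRG arrays, near the background level. Differentiated keratinocyte markers averaged 6.78 on DRG mutant replicate 1 and 5.54 to 6.22 on the other 5 DRG arrays, and their part in the values was not tested. None of the 44 was called between genotypes, beside 0.0726% of all probe sets, and 22 differences were positive and 22 negative.

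At an unadjusted p under 0.05 6 of the 44 differed in DRG, beside 7.15% of all probe sets. Mcm6 read 6.14, 6.13 and 6.12 in mutants, against 6.54, 6.40 and 6.30 in controls (-0.28, SE 0.08, limma adjusted p = 0.446). Kif23 read 7.06, 6.90 and 6.94 in mutants, against 7.18, 7.13 and 7.41 in controls, a difference of -0.28. Ccnd1 read 8.02, 8.23 and 8.29 in mutants, against 8.25, 8.53 and 8.47 in controls, a difference of -0.23 with overlapping arrays. Kif11 read 5.84, 6.11 and 6.07 in mutants, against 5.83, 5.57 and 5.71 in controls, and was above background on 2 mutant arrays and 1 control array. Ndc80 was not above background on any of the 6 arrays, and Prc1 was not on any control array, so no fold is given for either.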

How the data were processed

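Epidermis and DRG were measured on 18 Affymetrix Mouse Gene ST arrays, with 100 ng of RNA each. The log2 values deposited by the authors are probe set signals after RMA, made with Partek software, and were used without further scaling. RMA brings arrays to a common distribution, so a shift shared by most genes would not be seen. Genes came from a platform table that names 23410 probe sets, 21789 with exactly 1 gene.

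Groups, of 3 biological replicates each per the study's methods, were compared with limma 3.58.1 (lmFit, eBayes) in R 4.3.3 on the arrays compared, or on all epidermis arrays for the interaction. P-values were Benjamini-Hochberg adjusted over the 23410 probe sets, and a call was an adjusted p under 0.05. Fits were tested on simulated data.

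Values on every array were given for members called in at least 1 comparison, or else the member of each role with the smallest p, and of further lists up to 4 called genes per comparison or else the 2 of smallest p. Other genes were named after their values were seen. The members and lists were chosen with earlier results of these data known. Alternatives changed normalization, filters, moderation, weights, threshold, replicate block and arrays left out.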

Additional observations from a re-analysis of the deposited data

How the results depend on the processing

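The fall of Ccnd1 with CFA was called without any single array and under every other setting except an ordinary ANOVA (adjusted p = 0.0847 in mutants and 0.121 in controls) and a 2-fold limit. Under that ANOVA, and with a 2-fold limit, 0 genes were higher and 0 lower with CFA in mutants and 0 lower in controls. Of all probe sets the ANOVA called 7.59% higher and 8.89% lower in mutants and 10.6% lower in controls. With the 2-fold limit these shares were 0.602%, 2.83% and 3.47%. In mutants, 0 were higher with all probe sets, all epidermis groups in 1 fit or the mean of all probe sets of a gene, and 2 were lower with further quantile normalization, without dim probe sets or with that mean, under which Top2a turned to -0.38. Unadjusted p gave 4 higher and 5 lower in mutants, 8 lower in controls, 17 lower in naive and 1 higher in CFA mutants against controls, and 3 higher and 3 lower in DRG. All epidermis groups in 1 fit gave 5 lower in controls, Mcm3, Gins2, Rrm2, Ccne2 and Ccnd1, beside 17.2% of all probe sets. Leaving out 1 array gave 0 to 8 higher and 1 to 4 lower with CFA in mutants, and 0 to 4 higher and 1 to 5 lower in controls. Of all probe sets 8.02% to 10.5% were then higher and 10.0% to 11.7% lower in mutants. In controls 7.26% to 10.8% were higher and 11.2% to 14.2% lower. Without CFA control replicate 2 the 5 lower in controls were Mcm3, Mcm5, Rrm2, Ccne2 and Ccnd1, beside 13.2% of all probe sets. Without naive control replicate 2 they were 2, Gins2 and Ccnd1, beside 11.7%. In naive epidermis an ordinary ANOVA gave 8 genes lower at an unadjusted p under 0.05, beside 1127 of 23410 probe sets. Deviations from group means correlated at -0.236 to 0.233 between same-numbered arrays of different groups, and at -0.267 to 0.171 between arrays of other numbers. With replicate number as a block the calls with CFA were the same, 1 higher and 1 lower in mutants and 1 lower in controls. Of all probe sets 10.5%, 11.8% and 12.7% were called, in that order. With that block 13 genes were lower at an unadjusted p under 0.05 in naive mutants, beside 1105 of 23410 probe sets. With the 99th percentile as background 7 genes, not 24 in mutants and 23 in controls, lay above it on all 3 DRG arrays. With TTCGAA added, 19.2% of all promoter windows held a homology region. With array weights the interaction was positive for 32 of 44 genes. Genes below background in DRG cannot be compared, and 3 arrays a group could not show small changes.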
